A study of Bos taurus with 18 samples.

Results

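The nuclear genes of oxidative phosphorylation were followed in female and male bovine blastocysts. Members were taken by gene symbol: every probe set whose single listed symbol starts with NDUFA, NDUFB, NDUFC, NDUFS, NDUFV, SDHA, SDHB, SDHC, SDHD, UQCR, COX4, COX5, COX6, COX7, COX8 or ATP5, or is CYC1. This gave 116 probe sets of 89 genes, out of 9155 genes with a single symbol, and each gene was read from its brightest probe set over the 18 arrays. Of the 89 genes, 79 code for subunits: 36 of complex I, 4 of complex II, 9 of complex III, 14 of complex IV and 16 of complex V. The prefixes also caught 10 genes that are no subunits, namely the assembly factors NDUFAF3, NDUFAF5, NDUFAF6, NDUFAF8 and SDHAF1 to SDHAF4, the supercomplex factor COX7A2L and the inhibitor ATP5IF1. NDUFA4 and its relative NDUFA4L2 were counted with complex IV, where the NDUFA4 protein is now placed. NDUFA1 and NDUFB11 are X-linked and the other 77 subunit genes are autosomal. The rule itself uses no difference between groups, but these genes were taken up with an excess of male-biased subunits in these data already known, so that the direction found below is a description.

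The embryos were of mixed breed, were made in vitro with sex-sorted semen, and were frozen on day 7 after insemination. Females and males of bulls 1, 2 and 3 made 6 groups of 3 arrays, or 9 arrays per sex. Each array received RNA from 60 pooled blastocysts of the same sex and sire, amplified from 50 ng. A bull is 1 sire here, so that anything shared by the arrays of a bull cannot be told apart from the bull, and it is not stated whether the pools within a group derive from different fertilisations.

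Complexes I to IV form the respiratory chain of the inner mitochondrial membrane. Complexes I and II pass electrons from NADH and succinate to ubiquinone, complex III passes them on to cytochrome c, and complex IV to oxygen, while complexes I, III and IV pump protons. Complex V, the ATP synthase, uses the proton gradient to make ATP, and the blastocyst is known for a marked rise in oxygen use as its trophectoderm pumps fluid. Each complex except complex II also holds subunits encoded in mitochondrial DNA, none of which had a named probe set here (0 of 13), nor did COX4I2, COX6B1 and COX7B.

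The values are log2 expression values, and a difference is always the mean of females minus the mean of males, averaged over the bulls unless a bull is named. A gene is called where limma's adjusted p, over all 24016 probe sets, is under 0.05. Array medians lay between 5.33 and 5.49. XIST, the RNA of the inactive X chromosome, lay between 8.87 and 9.57 on the female arrays and between 5.93 and 7.28 on the male arrays. The sex labels thus fitted on all arrays, while the labels of bull and replicate could not be checked in this way. Of the blastocyst markers, KRT18 of the trophectoderm (means of 14.04 in both sexes) and POU5F1 of the inner cell mass (11.93 in both) were bright, but the trophectoderm genes KRT8 (5.79 in females), ELF5 (3.71) and PAG11 (3.78) were dim. Of the oocyte genes, GDF9 (3.71 in females) and ZP2 (3.77) were dim and OOEP (8.15 in females, 7.79 in males) was not. On 4 arrays the spread around the probe set medians exceeded 0.25 log2: female replicate 3 and male replicate 2 of bull 1, male replicate 1 of bull 2 and male replicate 3 of bull 3.

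Of the 89 genes, 15 (16.9%) were called for sex, beside 15.6% of all probe sets, so that the share of called genes was near the background. Only 3 genes (3.37%) were higher in females, the X-linked NDUFA1 and NDUFB11 and the complex IV subunit COX6C, beside 8.12% of all probe sets. The other 12 genes (13.5%) were higher in males, beside 7.47% of all probe sets. Members are mostly bright and autosomal, and of the 6188 autosomal genes among the brighter 50% of probe sets 12.7% were called higher in males and 10.5% higher in females. Against those genes the share called higher in males was near the background, while 1 of 77 autosomal subunits (1.3%) was called higher in females. The genes higher in males comprised NDUFS1, NDUFA3, NDUFB5 and NDUFC1 of complex I, SDHA of complex II, UQCRC1, UQCR11 and CYC1 of complex III, COX6A1 of complex IV, ATP5PD of complex V, and the non-subunits NDUFAF3 and ATP5IF1. These 12 differences were small, 1.12 to 1.28-fold. In RNA from whole embryos, fewer cells of a type and less RNA per cell cannot be told apart.

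**Figure D1:**
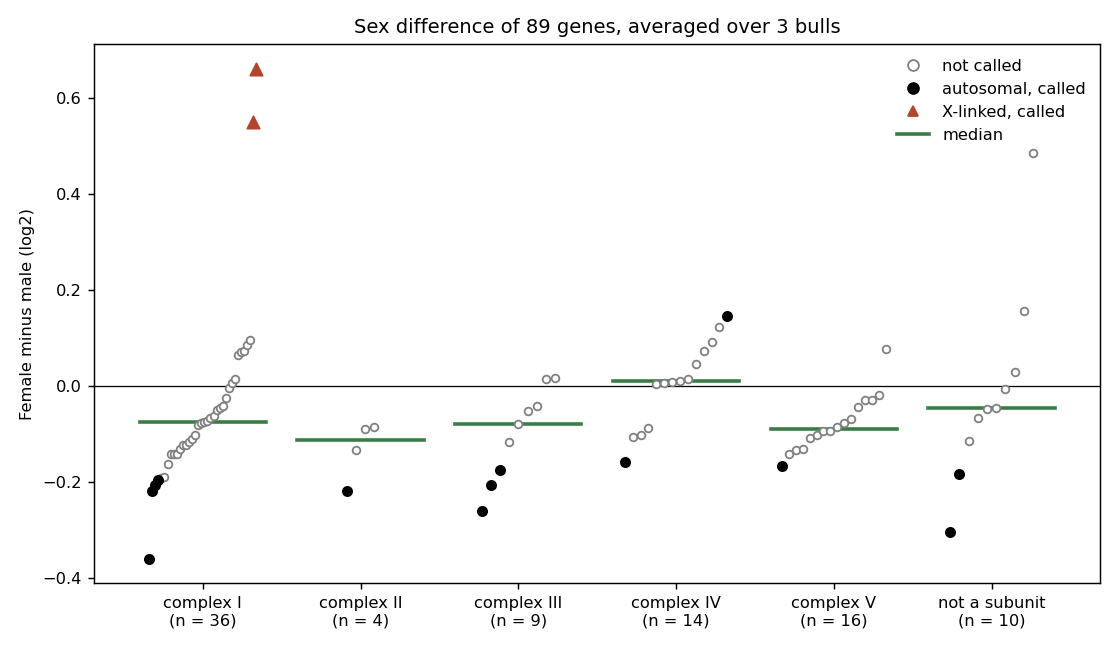
Female minus male difference (log2, y axis) of each of the 89 genes, averaged over 3 bulls and grouped by complex (x axis). Open circles are genes that were not called, filled circles are called autosomal genes, triangles are the X-linked NDUFA1 (0.66) and NDUFB11 (0.55), and green lines are medians, which lie below 0 for complexes I, II, III and V and at 0.009 for complex IV.

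The X-linked members gave the largest differences. NDUFA1 codes for a small membrane-arm subunit needed to assemble complex I. Its values ran from 12.53 to 12.77 with a median of 12.65 on the female arrays, and from 11.83 to 12.15 with a median of 12.01 on the male arrays. Every female array lay above every male array. The difference was 0.66 (SE 0.05, adjusted p = 4.54e-08), or 1.58-fold, and it was called within each bull at 0.57, 0.68 and 0.73 in bulls 1, 2 and 3. NDUFB11, another membrane-arm subunit, ran from 10.57 to 10.90 with a median of 10.78 in females and from 9.90 to 10.63 with a median of 10.20 in males. The sexes overlapped through a single male array, replicate 2 of bull 1, at 10.63. The difference was 0.55 (SE 0.07, adjusted p = 1.87e-05), or 1.46-fold, and it was called in bulls 2 (0.49) and 3 (0.74) but not in bull 1 (0.42, adjusted p = 0.0588). Both lay above the median difference of the 297 X-linked genes, 0.438, of which 208 were called higher in females and 1 lower.

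Complex I, the NADH dehydrogenase, had 34 autosomal subunits measured, of which 27 had a difference below 0, 4 were called lower in females and none was called higher. Their median difference was -0.079, beside -0.026 over all probe sets, of which 58.3% were below 0, and -0.020 over the 8824 autosomal genes, of which 55.7% were below 0. Among autosomal genes of the brighter 50% of probe sets 55.5% were below 0 with a median of -0.020, and 12.7% were called lower in females, near the 11.8% of the autosomal complex I subunits (4 of 34).

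NDUFS1 carries iron-sulfur clusters of the NADH-oxidising end of the enzyme. It ran from 9.17 to 9.44 with a median of 9.30 in females and from 9.51 to 9.82 with a median of 9.62 in males. No female array reached the lowest male array. The difference of -0.36 (SE 0.05, adjusted p = 8.35e-05) made it 1.28-fold higher in males, the largest autosomal difference among the subunits, with -0.49, -0.28 and -0.31 in the 3 bulls. Only that in bull 1 was called by itself (adjusted p = 0.00348).

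The other called subunits of complex I sit in its membrane arm as accessory proteins, and none of them separated the sexes fully. NDUFC1 ran from 10.97 to 11.16 (median 11.05) in females and from 11.11 to 11.49 (median 11.23) in males, a difference of -0.20 (SE 0.05, adjusted p = 0.00734). NDUFB5 ran from 10.24 to 10.62 (median 10.50) and from 10.43 to 10.84 (median 10.74), a difference of -0.21 (SE 0.06, adjusted p = 0.0174). NDUFA3 ran from 10.14 to 10.65 (median 10.39) and from 10.30 to 10.94 (median 10.56), a difference of -0.22 (SE 0.07, adjusted p = 0.0315). All of them were below 0 in each bull, but NDUFC1 (-0.06) and NDUFB5 (-0.08) were nearest 0 in bull 3. NDUFA3 was no longer called without any one of 9 of the 18 arrays (adjusted p = 0.0524 to 0.072): replicates 1 and 2 of female bull 1, 1 and 3 of female bull 2, 3 of female bull 3, 2 of male bull 1, 2 and 3 of male bull 2, and 3 of male bull 3.

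Divided by the place of the subunit in the enzyme, a grouping made after the values were seen and therefore given as a description, the matrix arm and the membrane arm looked unlike. The 15 measured subunits assigned to the matrix arm alone, which holds the flavin and the iron-sulfur clusters, all had a difference below 0, with a median of -0.132 and a range from -0.361 to -0.050. The 6 catalytic core subunits among them (NDUFS1, NDUFS3, NDUFS7, NDUFS8, NDUFV1 and NDUFV2) had a median of -0.177. Of these, NDUFS3 (-0.19, adjusted p = 0.0773), NDUFV2 (-0.19, adjusted p = 0.0788) and NDUFS8 (-0.16, adjusted p = 0.0632) came near the threshold without passing it. NDUFV2 had a male array, replicate 3 of bull 3, at 10.54 below every female array, and without that array its adjusted p was 0.00333. Of the 18 autosomal subunits of the membrane arm, 11 were below 0, with a median of -0.044 and a range from -0.219 to 0.095. NDUFAB1, the acyl carrier protein, which sits in both arms, was at -0.005 and was counted in neither. The highest autosomal values in complex I were those of NDUFA11 (0.10), NDUFC2 (0.09) and NDUFB2 (0.07), none of which was called.

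Complex II, succinate dehydrogenase, is also an enzyme of the citric acid cycle and is wholly nuclear encoded. All 4 subunits had a difference below 0 (median -0.113), and 1 was called lower in females. Of the autosomal genes of the brighter 50% of probe sets, 55.5% were below 0 and 12.7% were called lower. SDHA, the flavoprotein that oxidises succinate, ran from 10.41 to 10.56 with a median of 10.49 in females and from 10.65 to 10.75 with a median of 10.72 in males. The sexes did not overlap, and the values varied little within a sex (SD 0.05 in females and 0.04 in males). The difference was -0.22 (SE 0.05, adjusted p = 0.00206), or 1.16-fold higher in males, with -0.23, -0.24 and -0.19 in bulls 1, 2 and 3. Without bull 2 it was not called (adjusted p = 0.0635). The iron-sulfur subunit SDHB (-0.09) and the membrane anchors SDHC (-0.13) and SDHD (-0.09) were not called.

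Complex III, the cytochrome bc1 complex, had 9 subunits measured, of which 7 were below 0 (median -0.080), 3 were called lower in females and none was called higher. The background among autosomal genes of the brighter 50% of probe sets was 55.5% below 0, 12.7% called lower and 10.5% called higher. UQCRC1, a core protein, ran from 11.23 to 11.46 with a median of 11.38 in females and from 11.43 to 11.89 with a median of 11.60 in males. The sexes overlapped narrowly, between 11.43 and 11.46. Its difference was -0.26 (SE 0.06, adjusted p = 0.00628), with -0.23, -0.28 and -0.27 by bull. UQCR11, a small accessory subunit, averaged 11.32 ± 0.09 on female and 11.52 ± 0.09 on male arrays (SD, n = 9), a difference of -0.21 (SE 0.05, limma adjusted p = 0.00983). CYC1, cytochrome c1, which hands electrons to cytochrome c, had 11.70 ± 0.06 and 11.88 ± 0.07, a difference of -0.18 (SE 0.05, limma adjusted p = 0.0198). The Rieske protein gene UQCRFS1 (0.013) and the hinge protein gene UQCRH (0.016) lay at 0 within their SE of 0.05.

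Complex IV, cytochrome c oxidase, did not share the downward pattern. Of its 14 measured subunits 4 were below 0, 1 was called higher and 1 lower in females, and the median was 0.009. Autosomal genes of the brighter 50% of probe sets had 55.5% below 0, 10.5% called higher and 12.7% called lower. COX6A1, the widely expressed form of a small regulatory subunit, ran from 12.43 to 12.59 with a median of 12.54 in females and from 12.62 to 12.87 with a median of 12.65 in males. The sexes did not overlap, but the gap was narrow and the male arrays of bull 1 lay highest. The difference was -0.16 (SE 0.05, adjusted p = 0.0225), with -0.30 in bull 1 against -0.09 and -0.10 in bulls 2 and 3, and without bull 1 it was not called (adjusted p = 0.292). COX6C, another small subunit, ran from 12.47 to 12.67 with a median of 12.58 in females and from 12.33 to 12.61 with a median of 12.44 in males. The sexes overlapped widely. Its difference of 0.15 (SE 0.05, adjusted p = 0.0479) was only just called, and it was not called in 14 of the 18 fits that left out 1 array (adjusted p up to 0.102); the exceptions were the fits without female replicate 1 or male replicate 2 of bull 1, male replicate 1 of bull 2 or male replicate 3 of bull 3.

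Several subunits of complex IV have tissue forms. The forms known from heart and muscle, COX6A2 (4.48 to 5.02 over all arrays), COX7A1 (4.98 to 5.62) and COX8B (10.25 to 10.71), and the hypoxia-linked NDUFA4L2 (4.64 to 5.57) and testis-linked COX6B2 (7.04 to 7.56), did not differ detectably between the sexes, with differences from -0.09 to 0.07. Their widely expressed partners COX7A2 (0.010), COX8A (0.006) and NDUFA4 (0.12) were not called either. COX4I1, the large nuclear subunit, was at -0.11 (SE 0.05, adjusted p = 0.136).

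Complex V had 16 subunits measured. Of these, 15 were below 0 with a median of -0.091, 1 was called lower in females and none was called higher. Beside them, 55.5% of the autosomal genes of the brighter 50% of probe sets were below 0, with 12.7% called lower and 10.5% higher. ATP5PD, the d subunit of the peripheral stalk, ran from 12.08 to 12.26 with a median of 12.16 in females and from 12.26 to 12.54 with a median of 12.31 in males. Only the highest female and the lowest male array met, near 12.26. The difference was -0.17 (SE 0.05, adjusted p = 0.0253), 1.12-fold. It was lost (adjusted p = 0.0512 to 0.055) without any one of 5 arrays: replicate 1 of female bull 1, 1 of female bull 2, 1 and 3 of female bull 3, and 2 of male bull 2.

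The catalytic head and central stalk, ATP5F1A to ATP5F1E, were all below 0 (5 of 5, -0.142 to -0.077) and none was called. The same held for the 3 genes of the proton-carrying c ring, ATP5MC1 (-0.07), ATP5MC2 (-0.10) and ATP5MC3 (-0.04). ATP5PF of the peripheral stalk (-0.13, adjusted p = 0.0535) came nearest the threshold. ATP5ME, a small membrane subunit, was the exception at 0.08 (SE 0.08).

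Among the members that are no subunits, NDUFAF3, which helps build complex I, ran from 9.31 to 9.84 (median 9.62) in females and from 9.74 to 9.97 (median 9.90) in males. The sexes overlapped slightly. The difference was -0.31 (SE 0.05, adjusted p = 2.92e-04), or 1.24-fold higher in males. The other probe sets of NDUFAF3 gave -0.26 (adjusted p = 0.0524) at a mean level of 9.02 and -0.31 (adjusted p = 0.0266) at 3.27. The level of 3.27 is dim beside the 9.74 of the brightest probe set. ATP5IF1, which blocks ATP hydrolysis by complex V, ran from 12.25 to 12.60 (median 12.40) in females and from 12.47 to 12.81 (median 12.60) in males, a difference of -0.18 (SE 0.05, adjusted p = 0.0147). SDHAF4, a factor for the SDHA flavoprotein, stood out upward at 0.48 (SE 0.18, adjusted p = 0.0846) without being called. Male replicate 2 of bull 1 was at 4.71, and no other array was under 5.55. Without that array the difference was 0.31 (adjusted p = 0.11). The gene was called in 8 of 31 alternatives, among them the fits with bull as the replicate (adjusted p = 0.00248), without the 4 arrays of wide spread (0.34, adjusted p = 0.00387) and with array weights (0.37, adjusted p = 0.0206).

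**Figure D2:**
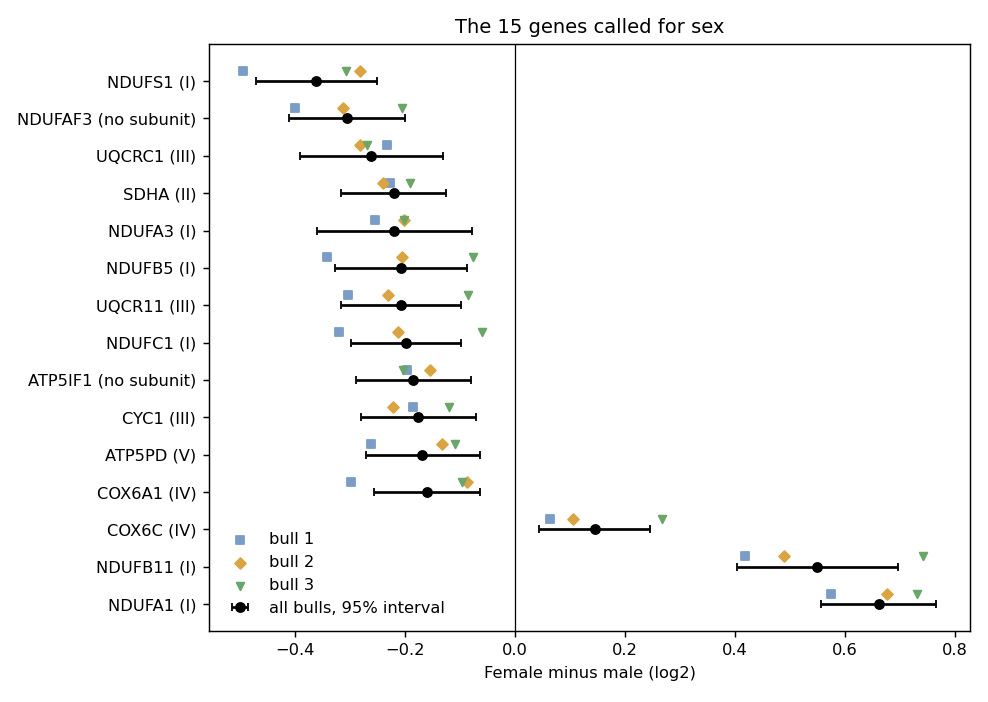
Female minus male difference (log2, x axis) of the 15 genes called for sex, with the complex in brackets. Black points with bars are the averages over the bulls with 95% intervals from limma, and coloured marks are the differences within bulls 1, 2 and 3, all of which have the same sign as the average.

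The values by array show how far single arrays carried these calls. NDUFA1, NDUFS1, SDHA and COX6A1 were the 4 genes of the 89 (4.49%) whose female and male arrays did not overlap, beside 2.92% of all probe sets. Of the 15 calls, 12 held without each single array in turn, the exceptions being NDUFA3, ATP5PD and COX6C. Leaving out whole bulls or taking the bull as the replicate was harder: NDUFA1, NDUFB11, NDUFS1 and NDUFAF3 alone held under all 31 alternatives.

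**Figure D3:**
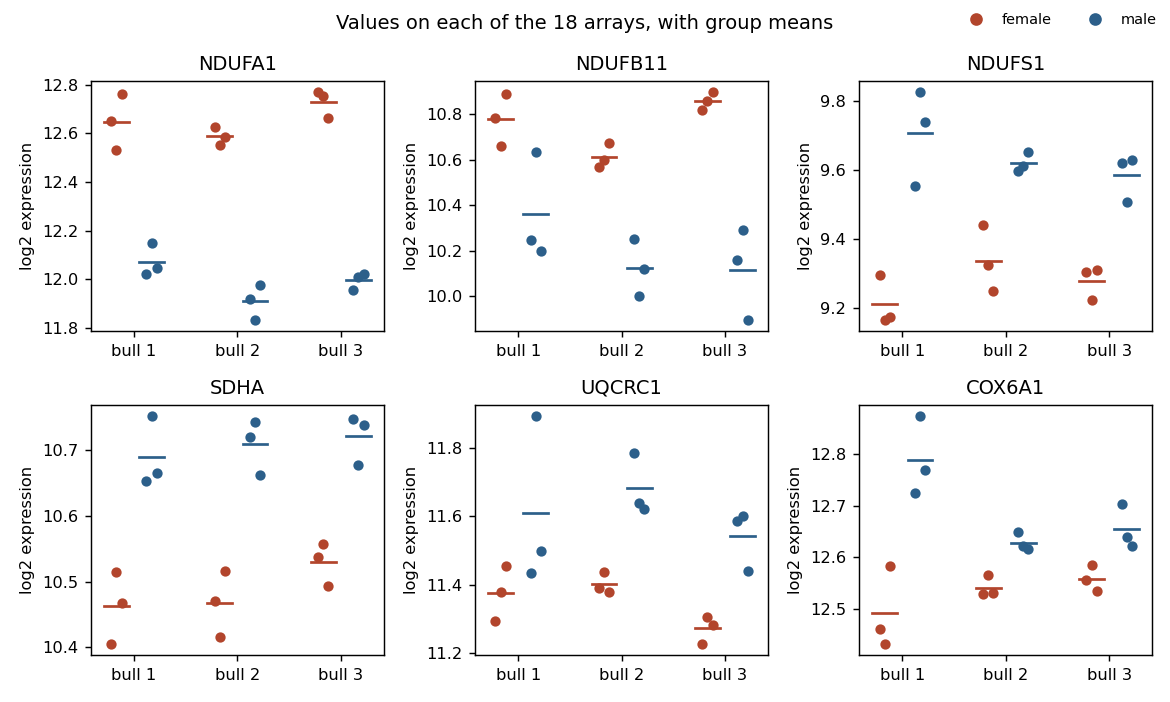
Log2 expression (y axis) on each of the 18 arrays for 6 called genes, by bull (x axis), with females in red and males in blue and a bar at each group mean of 3 arrays. In every bull the female group mean lies above the male one for NDUFA1 and NDUFB11, and below it for NDUFS1, SDHA, UQCRC1 and COX6A1. Male replicate 2 of bull 1 is the highest male array for all 6 genes, though only narrowly for SDHA.

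Within single bulls few members were called. In bull 1 there were 5, NDUFA1 upward and NDUFS1, NDUFAF3, NDUFC1 and COX6A1 downward, beside 4.2% of all probe sets. In bull 2 (background 3.13%) and in bull 3 (background 4.18%) there were 2 each, in both cases NDUFA1 and NDUFB11. In bull 1 the count was 3 without female replicate 2 of bull 1 or bull 2, female replicate 1 of bull 3, or male replicates 1 or 3 of bull 1. In bull 2 it was 1 without any of the female arrays of bull 2 or without its male replicates 2 or 3.

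The small downward differences of the autosomal subunits were spread unevenly over the bulls. In bull 1, 66 of 77 autosomal subunits were below 0 with a median of -0.161, beside 55.5% and -0.023 for autosomal genes. In bull 2, 60 were below 0 with a median of -0.096, beside 55.3% and -0.022 for autosomal genes. In bull 3, 35 were below 0 with a median of 0.012, beside 51.0% and -0.005 for autosomal genes. All complexes but IV lay well below 0 in bulls 1 and 2 and near 0 in bull 3, where the medians were 0.019, -0.008, 0.011 and 0.004 for complexes I, II, III and V. Complex IV had -0.001, 0.017 and 0.071 in the 3 bulls. Among the genes called on average, NDUFS1, UQCRC1, SDHA, NDUFA3, NDUFAF3 and ATP5IF1 had differences from -0.31 to -0.19 in bull 3. Of the 77, 34 were below 0 in every bull and 5 above 0 in every bull.

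No gene's sex difference was shown to differ between bulls. The interaction of sex and bull was called by limma for 0% of all probe sets and for no member, with 656 probe sets and 0 members at an unadjusted p under 0.05. Array quality moved along with the bulls. The mean signal of the 5′ control probe sets minus that of the 3′ ones, an index of how complete the labelled RNA was, differed between females and males by -0.224 in bull 1, 0.011 in bull 2 and 0.218 in bull 3. The index differences of bulls 1 and 3 rested largely on a single male array each. Male replicate 2 of bull 1 was at 0.447, against -0.347 and -0.06 for the other males of that bull. Male replicate 3 of bull 3 was at -1.268, against -0.575 and -0.566. A fit with that index as a covariate was added after seeing the data for the values within bulls. In it, the medians of the autosomal subunits in bulls 1, 2 and 3 were -0.113, -0.097 and -0.021, with 66, 61 and 45 of 77 below 0. For the 8824 autosomal genes the medians were -0.008, -0.022 and -0.019 with the covariate, and -0.023, -0.022 and -0.005 without it. In bull 3 the subunits thus lay near the autosomal genes. The medians of the subunits in the bulls lay closer together with the covariate than without it. The 4 arrays of wide spread include male replicate 2 of bull 1 and male replicate 3 of bull 3. Without these 4 arrays the medians of the autosomal subunits were -0.138, -0.081 and 0.002, beside -0.011, -0.021 and 0.008 for autosomal genes. Over all bulls the index differences cancel nearly, so that the covariate could not move the average. Whether array quality had a part in the differences between bulls was not tested.

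**Figure D4:**
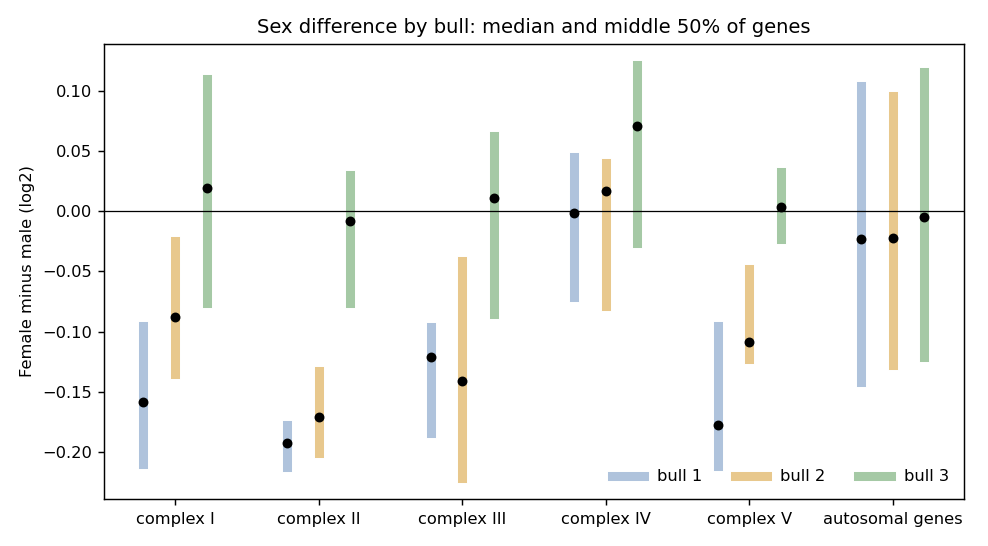
Female minus male difference (log2, y axis) within each bull for complexes I to V and for the 8824 autosomal genes (x axis); points are medians over genes and bars the middle 50% of genes. Complexes I, II, III and V lie below 0 in bulls 1 and 2 and near 0 in bull 3, and complex IV lies near 0 or above in all bulls.

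The level of a complex on an array was taken as the median, over its subunits, of the value minus the mean of that probe set over the 18 arrays. In bull 2, complex I lay from -0.090 to -0.072 on the female arrays and from -0.032 to 0.034 on the male arrays. Complex V lay from -0.062 to -0.048 and from -0.005 to 0.043 there. In both complexes the male arrays were all above the female arrays. All probe sets showed a smaller shift in the same direction in bull 2, from -0.033 to -0.024 in females and from -0.024 to -0.008 in males. In bull 1, complex V lay from -0.110 to 0.019 in females and from 0.061 to 0.182 in males, again apart, whereas complex I overlapped (-0.110 to 0.097 and 0.042 to 0.262). In bull 3 the sexes overlapped in every complex. The array that lay highest was male replicate 2 of bull 1, where autosomal subunits stood at 0.200 while all probe sets stood at 0.135. That array also had the highest 5′ minus 3′ index (0.447), and male replicate 3 of bull 3 the lowest (-1.268). Without male replicate 2 of bull 1 the median sex difference of the autosomal subunits was -0.066, and without male replicate 3 of bull 3 it was -0.083.

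**Figure D5:**
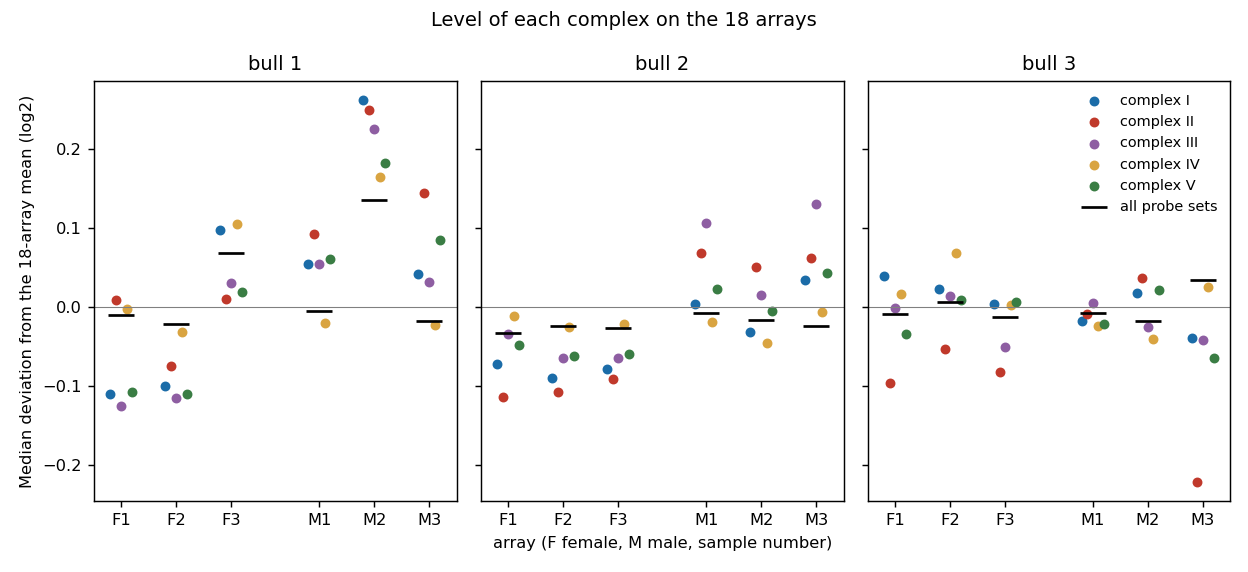
Median deviation of the subunits of each complex from their 18-array means (log2, y axis) on every array (x axis), by bull; black dashes mark the median of all probe sets. Male arrays lie above female arrays for complexes I, II, III and V in bull 2, and male replicate 2 of bull 1 lies highest in complexes I to V.

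The choice of probe set mattered for some genes. Among the 24 genes with more than 1 probe set there were 27 dimmer ones. Of these, 17 had the same sign of sex difference as the brightest. For sex, 5 of the 27 were called, beside 15.6% of all probe sets. UQCRC1 was called with a like difference in its dim probe set (-0.25, adjusted p = 0.0106). UQCRB (-0.33), UQCRC2 (-0.18) and NDUFA7 (-0.27) were called lower in females from a dim probe set though not from their brightest. The dim probe sets of UQCRC1 and NDUFA7 averaged only 3.57 and 3.5, and those of UQCRB and UQCRC2 averaged 6.77 and 6.91. The dim probe sets of COX6A1 (0.005) and COX6C (-0.20) had the opposite sign to the bright ones and were not called, and those of NDUFS1 (-0.16 and -0.04) had the same sign without a call.

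Between bulls the members hardly differed. No member was called between bulls 2 and 1 (364 of all probe sets called by limma, background 1.52%). Between bulls 3 and 1 (background 3.53%) the call was UQCRC2, the other core protein of complex III, with 10.778 to 11.003 in bull 3 and 11.002 to 11.341 in bull 1. The ranges met at one array of each bull, the difference was -0.26 (SE 0.07, adjusted p = 0.0416), and it was -0.21 in females and -0.31 in males. Between bulls 3 and 2 (background 3.74%) the calls were NDUFA3 and NDUFA8, both of complex I. NDUFA3 ran from 10.47 to 10.94 in bull 3 and from 10.14 to 10.45 in bull 2, without overlap, a difference of 0.38 (SE 0.08, adjusted p = 0.0150) that was 0.39 in females and 0.38 in males. NDUFA8 ran from 11.03 to 11.30 and from 11.31 to 11.52, just apart, a difference of -0.29 (SE 0.08, adjusted p = 0.0415). UQCRC2 was called in 4 of the 18 fits that left out 1 array and not called in 14 (adjusted p up to 0.106); the 4 were those without female replicate 2 or male replicate 1 of bull 1, male replicate 1 of bull 2 or male replicate 2 of bull 3. NDUFA8 was called in 9 of 18 (adjusted p up to 0.113) and was not called without any one female array of bull 2, female replicates 1 or 2 of bull 3, or male replicates 1 or 3 of bulls 2 or 3. NDUFA3 was called in all 18 (adjusted p up to 0.0492). With the 5′ minus 3′ index as a covariate no member was called between bulls 3 and 1 or bulls 3 and 2, NDUFA3 included. That index was lowest in bull 3, at -0.585 in females and -0.803 in males. It was at -0.248 and -0.259 in bull 2 and at -0.21 and 0.013 in bull 1. Index and bull thus went together, and the fit with the covariate cannot tell them apart. The share of all probe sets called in that fit is not given here.

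Other genes that build or serve the chain were taken from lists, to be read against the 7.47% of all probe sets called lower and the 8.12% called higher in females, or the 12.7% and 10.5% of bright autosomal genes. Of 21 measured assembly factors that are not members, 7 were called lower and 1 higher in females, with a median of -0.107. BCS1L, which inserts the Rieske protein into complex III, averaged 9.09 ± 0.16 on female and 9.45 ± 0.15 on male arrays (SD, n = 9; -0.36, limma adjusted p = 6.78e-04). COX20, a complex IV factor, differed by -0.34 and UQCC3, a complex III factor, by -0.30, while COA3 of complex IV was higher in females by 0.20. Of 16 genes of mitochondrial DNA upkeep, transcription and biogenesis, 2 were called lower (SIRT3, a mitochondrial deacetylase, at -0.26 and the transcription terminator family member MTERF3 at -0.19) and 1 higher. The latter was NRF1, a transcription factor of respiratory chain genes, at 6.22 ± 0.16 in females and 5.83 ± 0.19 in males (SD, n = 9; 0.39, limma adjusted p = 0.00149). The median of that list was -0.019.

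Of 25 further genes for electron carriers, other routes to ubiquinone, exchangers and uncouplers, 5 were called lower and 2 higher in females (median -0.072). All 5 lower genes make ubiquinone, the lipid carrier between complexes I or II and complex III. COQ6, a hydroxylase of its ring, had 7.30 ± 0.12 in females and 7.81 ± 0.12 in males (SD, n = 9; -0.51, limma adjusted p = 1.37e-05). COQ2, which joins ring and tail, differed by -0.36 and PDSS2, of the enzyme that makes the tail, by -0.29. PDSS1 (-0.24) and COQ7 (-0.23), named after their values were seen, were the other called genes. Of the 8 ubiquinone genes measured, a grouping within the list that was also made after the values were seen, 7 were below 0 with a median of -0.234. The higher genes were HCCS, which attaches heme to the c-type cytochromes, at 0.60 (chromosome not given in the gene table) and SLC25A5, an X-linked ADP/ATP exchanger, at 0.33.

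Markers of cell types were read on the same arrays, and most of these lists are too short to set their counts against the 7.47% and 8.12% of all probe sets. Of 10 trophectoderm genes 4 were called lower and 1 higher in females, and their mean level ran from 7.49 to 7.90 on female and from 7.58 to 8.11 on male arrays. Of 5 inner cell mass genes 2 were called higher in females, with levels from 9.45 to 9.70 and from 9.24 to 9.50. Of 10 primitive endoderm genes 1 was called in each direction (7.51 to 7.70 and 7.42 to 7.65). Cumulus and granulosa genes (3 of 14 called higher and 1 lower), blood genes (2 of 5 higher, 1 lower), oocyte genes (1 of 8 higher) and sperm genes (2 of 8 higher and 2 lower) had mean levels between 4.66 and 5.64 on all arrays. These means hide brighter genes, such as HAS2 (9.85 in females, 9.96 in males), COL1A2 (8.79 and 9.04), HBB (8.355 and 7.55) and ODF2 (9.21 and 9.46). The sperm gene PRM1 had the largest difference in these lists, 1.73 (6.65 in females and 4.92 in males, limma adjusted p = 1e-07). The part of cell makeup in the subunit differences was not tested.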

How the data were processed

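Per the labels, RNA was hybridised to 18 Affymetrix bovine arrays. What the authors deposited are log2 values, 1 per probe set; the submitters' processing notes mention RMA and Partek 6.4 but not their roles, and log2 was inferred from the range (1.89 to 14.15). RMA equalises the arrays' distributions and thus hides any shift common to all transcripts.

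After removal of 112 array controls, 24016 of 24128 probe sets were tested; the platform annotation gives a single gene symbol for 13292, several for 86 and no symbol for 10638. All 89 members were found in a gene table of ARS-UCD2.0, from which only names and chromosomes were taken. A model of 6 group means (limma 3.58.1 under R 4.3.3, with moderated variances and 12 residual degrees of freedom) gave the contrasts for sex, sex within each bull, the interaction and pairs of bulls. Benjamini-Hochberg adjustment ran over all probe sets (threshold 0.05). The p-values reflect the spread among pools alone, which may be technical, and precision is limited by how many arrays there are. A fold is 2 raised to the log2 difference. The fit was tested on simulated data.

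Members and lists were chosen with earlier results of these data known, among them an excess of male-biased subunits, whose direction is therefore no independent evidence. Named by rule were called or X-linked members, up to 3 per direction for each pair of bulls (same sign in both sexes), tissue isoforms, c ring genes, members outlying within a sex, and up to 3 per direction from other lists; further names were chosen after their values were seen.

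Alternatives were an additive model, only the brighter 50% of probe sets, quantile normalization, an intensity trend, array weights, a block for the sample number, omission of each bull, of each array and of the 4 arrays of wide spread, bulls as replicates, a covariate for the 5′ minus 3′ index, and averaging the probe sets of a gene. Sequences were not used here. Figures were drawn with matplotlib 3.10.9.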

Additional observations from a re-analysis of the deposited data

Results flagged for a closer look

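With 3 arrays in each of the 6 groups, single arrays were checked within the 9 arrays of a sex. Chance flags about 1 in 20 such groups. Male replicate 2 of bull 1 stood apart in 11 genes: NDUFA10 (10.45), NDUFA7 (11.45), NDUFB7 (10.92), NDUFS7 (9.98), COX4I1 (12.58), COX7A2 (13.46), NDUFA4 (13.14), ATP5F1B (12.40), ATP5F1E (11.78), ATP5PD (12.54) and SDHAF4 (4.71). SDHAF4 was low and the other 10 were high there. Female replicate 3 of bull 1 stood high in NDUFA10 (10.21), NDUFB1 (11.19), SDHD (11.35), COX7C (12.41) and SDHAF2 (9.88). Male replicate 3 of bull 3 stood low in NDUFB6 (10.70), NDUFV2 (10.54), CYC1 (11.71) and ATP5MC2 (11.37). These were also 3 of the 4 arrays of wide spread. Female replicate 2 of bull 1 stood low in ATP5F1C (12.02) and ATP5PB (12.14).

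UQCRB, a complex III subunit, had all female arrays below all male arrays in bull 1 (-0.161) and bull 2 (-0.141) and all above them in bull 3 (0.063). COX7A2L did the same in bull 2 (-0.111) and bull 3 (0.054). In the test of the interaction neither passed (limma adjusted p = 1 for both).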

How the results depend on the processing

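The medians of complexes I, II, III and V stayed below 0 under every alternative tried, and the autosomal subunits below 0 numbered 53 to 66 of 77 (a count added after seeing the data). Members called for sex, 15 by the main analysis, numbered 26 with an intensity trend, 27 with array weights, 23 without the 4 arrays of wide spread, 8 without bull 3 and 8 with bull as the replicate, and 4 without bull 2; without single arrays they numbered 12 to 19. Members called within bulls 1, 2 and 3 (5, 2 and 2) numbered 12, 5 and 4 with the brighter 50% of probe sets, 12, 4 and 4 with an intensity trend, 10, 7 and 15 with array weights, and 8 and 7 in bulls 1 and 3 without wide arrays; without single arrays they numbered 3 to 7, 1 to 3 and 2 to 3. Members called between bulls 3 and 1 and between bulls 3 and 2 (1 and 2) numbered 4 and 4 with the brighter probe sets, 4 and 4 with the trend, 3 and 5 with weights, and 0 and 0 with the 5′ minus 3′ index; without single arrays they numbered 0 to 2 and 1 to 3. Between bulls 3 and 1 there were 0 without wide arrays or with the mean over probe sets. Between bulls 2 and 1 (0) there was 1 with the trend, with weights or without wide arrays. The settings can change the calls among all probe sets as well. Without single arrays, 3175 to 3983 of all probe sets were called for sex, beside 3743 in the main analysis. For the other settings the share of all probe sets is not given here. The member counts of this section are therefore no result about the members. The medians of the autosomal subunits and of complexes I, III and V (-0.080, -0.076, -0.080 and -0.091) shrank to -0.039, -0.048, -0.039 and -0.046 without bull 1 and grew to -0.119, -0.117, -0.150 and -0.136 without bull 3; that of complex II (-0.113) was -0.174 without bull 3, and that of complex III was -0.049 without bull 2. COX6C reversed to -0.03 (adjusted p = 0.836) with the mean over its probe sets, since its dim probe set has the opposite sign. Without bull 2 or bull 3, UQCRC1 (adjusted p = 0.0967 and 0.0728) and ATP5IF1 (0.107 and 0.135) lost their calls; without bull 1 or bull 2, UQCR11, NDUFC1 and NDUFB5 did (0.108 to 0.160). CYC1, NDUFA3, ATP5PD and COX6A1 lost theirs whichever bull was left out. The cause of the other changes was not tested. Sample numbers did not pair the arrays (2 of 18 correlated best with their own number); with the number as a replicate block 14 members were called for sex, 3, 2 and 2 within the bulls, and 0 and 1 between bulls 3 and 1 and bulls 3 and 2. The 8 members with a mean under 7.5 had a median SE of 0.072 for the sex difference, beside 0.055 for all members. SDHAF4 had the largest SE (0.182), but the dim COX6A2 (0.058) and NDUFAF6 (0.054) were near the median of all members.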
